A study of Homo sapiens with 79 samples.

Results

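Rod photoreceptors were taken as the cells of human retinal organoids with at least 5 reads each in at least 2 of 3 rod genes, NRL, GNAT1 and NR2E3, and 124 of the 1976 deposited cells met this rule. The members were thus selected on measured reads, so the levels of these 3 genes describe how the cells were chosen and were not tested. All cells came from 1 human embryonic stem cell line, a CRX-GFP reporter derivative of H9 whose green fluorescent protein marks expression of CRX, a photoreceptor regulator. The line was differentiated to retinal organoids in medium holding foetal calf serum, T3, Taurine and Retinoic Acid, and every time point shared this treatment. Organoids of day 60, day 90 and day 200 were dissociated, and single cells were caught on Fluidigm C1 HT chips and sequenced with SMART-Seq v4 chemistry, which reads full-length cDNA without molecular identifiers. The labels end in day60, day90, day200a or day200b. These endings were taken as 1 chip at day 60, 1 at day 90 and 2 at day 200, here called chips 200a and 200b. Values given in threes follow the order day 90, 200a, 200b. The 79 samples are columns of these 4 chips and were not treated as replicates, and nothing in the labels says how many organoids or differentiations fed a chip.

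Rods are the photoreceptors of dim-light vision. NRL, a transcription factor, directs photoreceptor precursors to the rod fate and switches on NR2E3, a nuclear receptor that represses cone genes, while CRX and OTX2 act in rods and cones alike. Light activates transducin, whose rod alpha subunit is GNAT1. Transducin then releases the phosphodiesterase PDE6A/PDE6B from its inhibitor PDE6G, cyclic GMP falls, and the channel of CNGA1 and CNGB1 closes. The proteins sit in stacked outer segment discs, whose rims need ROM1 and PRPH2 and whose axoneme needs RP1.

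The 4 chips held 578 cells at day 60, 661 at day 90, 356 on 200a and 381 on 200b. Reads assigned to genes per chip column ran from 3414268 to 7999822. Rods held between 61477 and 662450 reads each, with a median of 197891 in the 1 day 60 rod, 181383 at day 90, 232181 on 200a and 200096 on 200b, against 164352, 160343, 251929 and 212201 over all cells of those chips. After every rod was thinned to 50000 reads, the median number of genes detected was 3132 at day 90, 1756 on 200a and 2729.5 on 200b. The study states a filter of 150000 reads (100000 at day 60) and 2000 genes per cell. On the gene reads deposited, 1582 of the 1976 cells and 94 of the 124 rods lie above those limits. A doublet caller marked 7 cells, of which 1 was a rod, and all were kept. The chips use 40 row barcodes, each found in 35 to 59 of the 79 columns, so a barcode alone does not name a cell.

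Rods were rare at day 60 and made up a like share of the later chips. At day 60 the rule was met by 1 of 578 cells, a share of 0.173% (exact binomial 95% interval 0.00438 to 0.960). The share was 8.62% (6.60 to 11.0) at day 90, 10.7% (7.67 to 14.4) on 200a and 7.35% (4.94 to 10.4) on 200b. The interval of day 60 lay below the other intervals, and those of the other 3 chips overlapped. Pooled over its 2 chips day 200 held 66 rods among 737 cells, 8.96%, and exceeded day 90 by 0.332 percentage points (95% interval -2.69 to 3.30). These intervals cover counting error, and with 1 chip at day 60 and at day 90 no test between days was possible. The rods were spread over 18, 16 and 13 chip columns at day 90, on 200a and on 200b, with at most 11, 6 and 5 in a column.

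**Figure D1:**
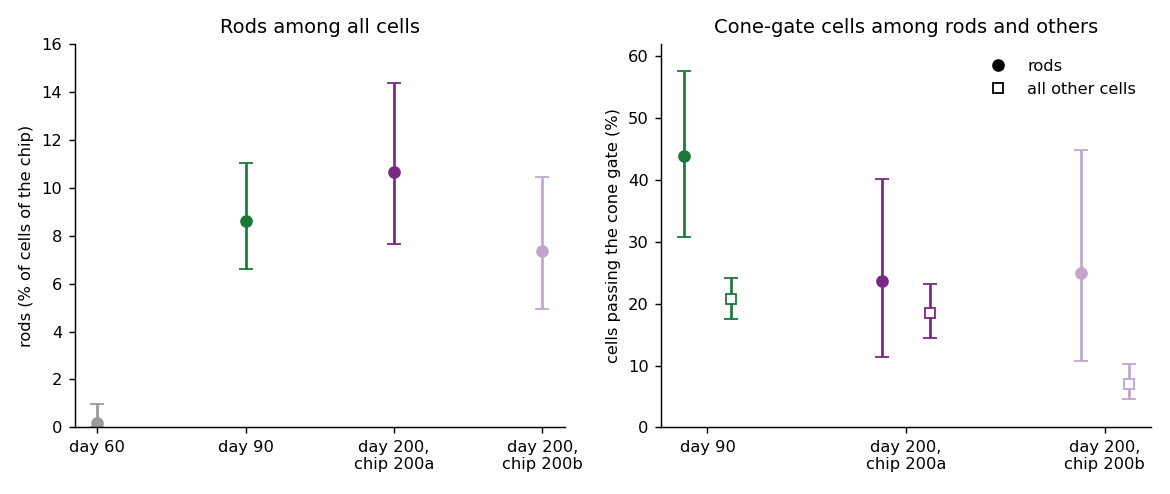
Left, share of cells that met the rod rule on each of the 4 chips, and right, share of rods and of all other cells that pass the gate of cone genes described further on, both in percent with exact binomial 95% intervals as bars. The share of rods is 0.173% at day 60 and 7.35% to 10.7% on the later chips, and the cone gate is passed by 23.7% to 43.9% of rods and 7.08% to 20.7% of other cells.

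Most rods passed the rule on NRL and GNAT1. At day 90 30 rods had NRL and GNAT1 without NR2E3, 10 had NRL and NR2E3, and 17 had all 3 genes. On 200a there were 18, 7 and 13 such rods. On 200b there were 6, 4 and 13, and a further 5 with GNAT1 and NR2E3 but without NRL, a combination that no rod of the other chips showed. NR2E3 reached 5 reads in 47.4% of day 90 rods (34.0 to 61.03), 52.6% on 200a (35.8 to 69.02) and 78.6% on 200b (59.05 to 91.7). GNAT1 did so in 82.5%, 81.6% and 85.7%. Near the threshold, 16 rods had 5 to 9 reads of their second-highest rule gene and 24 cells with 3 or 4 reads were left outside, while the median rod had 42, 163.5 and 63.5 such reads at day 90, on 200a and on 200b.

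Summed over the rods of a chip, NRL stood at 549, 1634 and 939 CPM, that is reads scaled to a fixed total of gene reads per group, at day 90, on 200a and on 200b, GNAT1 at 835, 1519 and 703 CPM, and NR2E3 at 93.8, 354 and 388 CPM. NRL in single rods ran from 23.6 to 2848 CPM with a median of 361 at day 90, from 16.1 to 8004 with a median of 1325 on 200a, and from 0 to 4421 with a median of 349 on 200b.

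The 3 label markers that the rule did not use, PDE6G, ROM1 and RP1, were all found in the rods. Each was compared with 3 sets of other cells on the same chips. Cone-gate cells had at least 5 reads each in at least 2 of the cone genes ARR3, PDE6H and GNGT2 and were not rods (125 at day 90, 59 on 200a, 25 on 200b). Precursor-gate cells had at least 5 reads each in at least 2 of VSX1, LHX4 and NEUROD4, genes of photoreceptor and bipolar precursors, and passed neither other gate (46, 25 and 35). The remaining cells numbered 433, 234 and 293. Median reads per cell were 187563, 269541 and 259372 in cone-gate cells, 173721, 225048 and 187433 in precursor-gate cells, and 152824, 250684 and 216645 in the remaining cells.

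ROM1, the disc rim protein (chr11:62611722-62615116, plus strand, GRCh38), had a read in 77.2% of day 90 rods, 76.3% on 200a and 67.9% on 200b, against 8.55%, 16.2% and 6.48% of the remaining cells. Its level was 248 CPM (exact Poisson 95% interval 239 to 257), 909 CPM (891 to 928) and 411 CPM (395 to 427) in the rods of day 90, 200a and 200b. RP1, the axoneme protein, stood at 408, 910 and 702 CPM and had a read in 66.7%, 76.3% and 78.6% of rods, against 9.93%, 25.2% and 16% of the remaining cells. PDE6G, the inhibitory phosphodiesterase subunit (chr17:81650459-81663112, minus strand), was found in fewer rods, 26.3%, 47.4% and 35.7%, against 2.77%, 12.4% and 1.71% of the remaining cells. Its level was 86 CPM at day 90, 902 CPM on 200a and 84.8 CPM on 200b, so 200a stood apart from the other 2 chips. At all 3 markers the rods lay above the remaining cells on every chip.

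**Figure D2:**
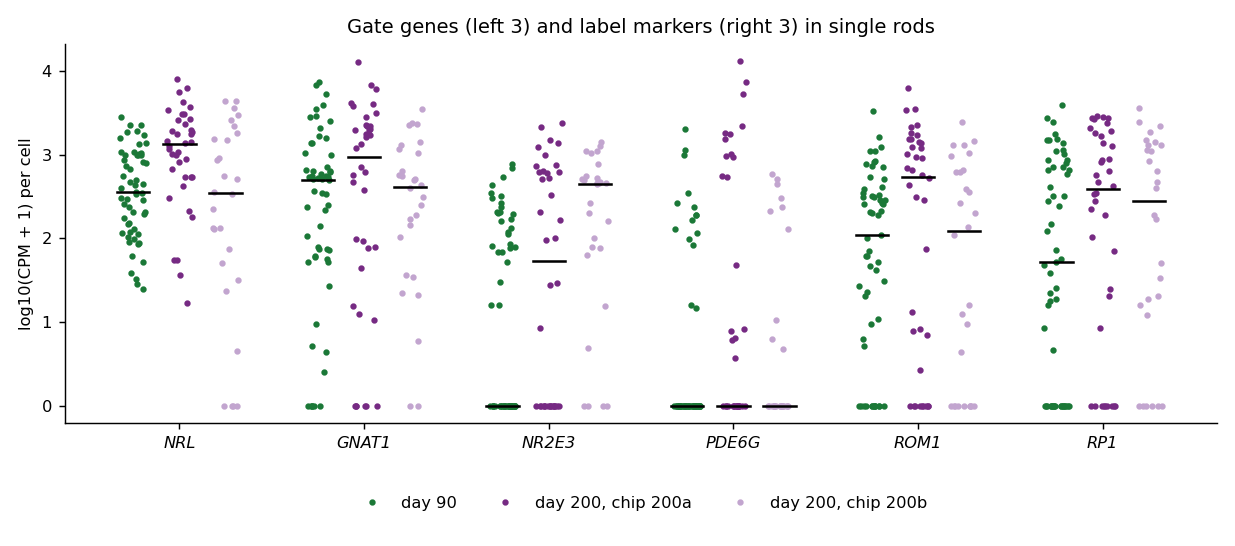
Level of NRL, GNAT1, NR2E3, PDE6G, ROM1 and RP1 in each rod of the day 90 chip and the 2 day 200 chips. Each point is a cell on a log10(CPM + 1) axis and each line a median, and a read of ROM1 or RP1 was found in 66.7% to 78.6% of rods by chip, of PDE6G in 26.3% to 47.4%.

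Rods were then set against cone-gate cells to show which genes part the 2 kinds of photoreceptor. Reads were summed per chip and cell group, and edgeR's quasi-likelihood test was fitted on 6 libraries of 3 chips with chip as a term, which leaves 2 residual degrees of freedom. The genes of both gates were left out of every count of this comparison and of the later one with precursor-gate cells. The later fit for a change by day kept them. ROM1 was the 1 gene called higher in rods at a Benjamini-Hochberg adjusted p under 0.05, 0.00645% of the 15499 genes tested. Cone-gate cells held 19.3, 76.8 and 35.7 CPM of ROM1 at day 90, on 200a and on 200b, and the log2 fold change was 3.58 (SE 0.259, edgeR adjusted p = 0.0148). In ratios of CPM + 10, rods exceeded cone-gate cells 8.80-fold, 10.6-fold and 9.22-fold on the 3 chips. With any 1 chip left out the ROM1 call was lost (edgeR adjusted p from 0.0932 to 0.166). Over all 15 alternatives the log2 fold change lay between 3.39 and 3.71. No gene was called lower in rods (0% of those tested). At an unadjusted p under 0.05 edgeR had 246 genes higher and 294 lower. The 246 and 294 together are a smaller share of the 15499 than 0.05. DESeq2 called 133 of the 15499 higher and 144 lower at an adjusted p under 0.05.

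Because so few genes passed with 2 residual degrees of freedom, a rule of size was added after seeing the data: a ratio of CPM + 10 of at least 2 on each of the 3 chips. By this rule 36 genes were higher in rods (0.232% of 15499) and 37 lower (0.239%). All 3 label markers outside the rule were among the higher genes. PDE6G held 4.71, 69.7 and 18.5 CPM in cone-gate cells, 6.53-fold, 11.4-fold and 3.32-fold below the rods (log2 fold change 3.36, SE 0.449, edgeR adjusted p = 0.307). RP1 held 91.3, 79.3 and 281 CPM there, and its ratios were 4.13, 10.3 and 2.44. With each gene's richest rod left out on every chip the 36 genes became 9, and with the rods that also pass the cone gate left out they became 66, of which 20 were shared. RP1 was among those lost without the rods of both gates. The 37 lower genes became 8 with each gene's richest cone-gate cell left out, and 131 without the rods of both gates, of which 29 were shared.

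Among the rod phototransduction genes, 3 of the 10 tested were at least 2-fold higher than in cone-gate cells on each chip and 0 lower. The median log2 fold change of the 10 was 1.76, against -0.08 over all genes. They were PDE6G, PDE6B, the catalytic beta subunit, and CNGB1, the channel's beta subunit. PDE6B stood at 119, 273 and 293 CPM in rods and at 38.4, 68.2 and 54.4 CPM in cone-gate cells, and 1 rod carried 55.1% of its reads on 200b. CNGB1 stood at 116, 341 and 435 CPM against 51, 89.2 and 128 CPM. Both fell below 2-fold on a chip when the richest rod was left out.

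Several late rod genes were scarce. PDE6A, the catalytic alpha subunit, had a read in 1, 3 and 6 rods at day 90, on 200a and on 200b, with 0.37, 35.5 and 97.9 CPM. SAG, the rod arrestin that ends the light response, had a read in 0, 3 and 2 rods (0, 26.7 and 5.44 CPM). CNGA1, the channel's alpha subunit, had a read in 1 day 90 rod and in no rod of day 200, and on 200a 0 of 38 rods allows a share of up to 7.89% with a read. GNGT1, the rod transducin gamma subunit, was uneven at 210, 26.2 and 551 CPM, and at day 90 it stood at 246 CPM in the remaining cells, above the rods. RCVRN, recoverin of both photoreceptors, stood at 985, 3364 and 4592 CPM in rods against 989, 1159 and 2957 CPM in cone-gate cells. GRK1 was not analysed here.

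Of 16 outer segment genes tested ROM1 and RP1 passed the 2-fold rule, 0 were lower, and the median log2 fold change was -0.29. PRPH2, the partner of ROM1, held 174, 527 and 332 CPM in rods and 168, 234 and 303 CPM in cone-gate cells, and IMPG2, a proteoglycan of the matrix around outer segments, held 250, 652 and 405 against 324, 545 and 915 CPM. Of 14 fate regulators, 13 ribbon synapse genes and 15 photoreceptor metabolism genes tested, 0 passed the rule in either direction. OTX2 held 1035, 776 and 729 CPM in rods and 716, 558 and 641 CPM in cone-gate cells. CRX was sparse, with 15.1, 4.14 and 10.9 CPM in rods and 19.6, 26.7 and 54.9 CPM in cone-gate cells, and 11 of the 124 rods had at least 5 CRX reads.

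MXRA5, an extracellular matrix gene, followed ROM1 among genes ranked by the smallest of their 3 ratios, a ranking chosen after the values were seen. It stood at 121, 382 and 450 CPM in rods and at 6.53, 24.8 and 57.6 CPM in cone-gate cells (log2 fold change 3.70, SE 0.369, edgeR adjusted p = 0.0659). CCKBR, a receptor for cholecystokinin and gastrin, came next with 43.4, 677 and 255 CPM against 0.244, 31.2 and 0.843 CPM. CABP5, a calcium-binding protein known from bipolar cells and listed as their marker, stood at 32.8, 257 and 253 CPM in rods and at 11.4, 23.4 and 16.2 CPM in cone-gate cells. Of the 11 bipolar genes tested, 0 passed the 2-fold rule against cone-gate cells, and the 11 summed to 271, 680 and 639 CPM in rods and 297, 232 and 76.7 CPM in cone-gate cells. Whether bipolar RNA has a part in the CABP5 values was not tested.

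**Figure D3:**
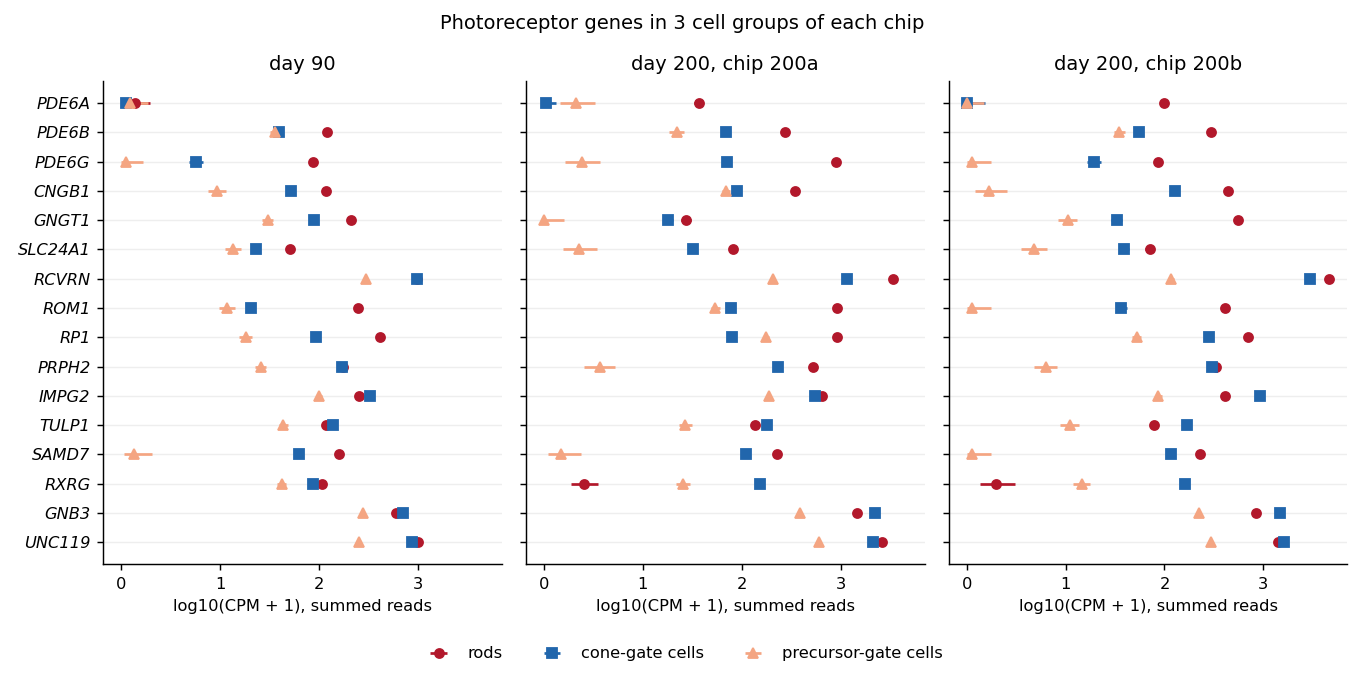
Levels of photoreceptor genes in rods, cone-gate cells and precursor-gate cells of the day 90 chip and the 2 day 200 chips, as log10(CPM + 1) of summed reads with exact Poisson 95% intervals as bars. ROM1 lies at 248 to 909 CPM in rods and at 19.3 to 76.8 CPM in cone-gate cells, while PRPH2 lies at 174 to 527 CPM in rods and at 168 to 303 CPM in cone-gate cells.

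Against precursor-gate cells edgeR called 4 genes higher in rods, 0.0272% of 14694 tested, and 0 lower (0%), with 272 higher and 185 lower at an unadjusted p under 0.05. The 272 and 185 together are likewise a smaller share of the 14694 than 0.05. DESeq2 called 193 of the 14694 higher and 86 lower at an adjusted p under 0.05. This comparison was added after seeing the data, because cells with CRX reads outside both gates reached 10 on 1 chip. The 4 genes were PDE6G, CCKBR, SAMD7 and UNC119. PDE6G held 0.118, 1.41 and 0.135 CPM in precursor-gate cells of day 90, 200a and 200b (edgeR adjusted p = 0.00181), and CCKBR held 0, 0 and 0.271 CPM (edgeR adjusted p = 0.0138). SAMD7, a photoreceptor repressor that works with Polycomb proteins, stood at 158, 226 and 229 CPM in rods and at 0.353, 0.469 and 0.135 CPM in precursor-gate cells (edgeR adjusted p = 0.0138). Cone-gate cells held 62.3, 109 and 114 CPM of it. For these 3 genes the fitted fold rests on so few precursor reads that it depends on the prior count and is not given.

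UNC119, which carries transducin between the compartments of the cell, stood at 1009, 2632 and 1413 CPM in rods and at 252, 602 and 295 CPM in precursor-gate cells (log2 fold change 2.13, SE 0.192, edgeR adjusted p = 0.0212). Cone-gate cells held 872, 2107 and 1634 CPM, and the log2 fold change of rods against them was 0.10 (SE 0.189, edgeR adjusted p = 1.0). Without 200b or without day 90 the calls of CCKBR, SAMD7 and UNC119 were lost (edgeR adjusted p from 0.0589 to 0.296), and that of PDE6G held without each chip. Without 200a 11 genes were called higher. The PDE6G call was lost with limma on mean CPM (limma adjusted p = 0.145), with limma-voom (voom adjusted p = 0.117) and without the chip term (edgeR adjusted p = 0.0781). UNC119 alone of these genes stayed called in both limma fits (limma adjusted p = 0.0236, voom adjusted p = 0.0315).

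By the 2-fold rule 111 genes were higher in rods than in precursor-gate cells (0.755% of 14694) and 42 lower (0.286%). Of 10 phototransduction genes 6 were higher and 0 lower (GNGT1, PDE6B, PDE6G, CNGB1, SLC24A1, RCVRN), with a median log2 fold change of 4.41 against 0.05 over all genes. Of 15 outer segment genes 6 were higher and 0 lower (ROM1, PRPH2, RP1, TULP1, IMPG2, RBP3). PRPH2 held 24.8, 2.66 and 5.28 CPM in precursor-gate cells. Among the fate regulators RAX2 and SAMD7 were higher, and of 9 cone genes GNB3 and KCNV2. Of 10 bipolar genes tested CABP5 was higher and CA10 lower. SSTR2, a somatostatin receptor, lay furthest below precursor-gate cells by the smallest ratio, with 16, 29 and 8.16 CPM in rods against 219, 361 and 134 CPM (edgeR adjusted p = 0.059), and NRXN3, a presynaptic adhesion gene, with 63.3, 107 and 77.4 against 138, 379 and 422 CPM. With the richest cell of each gene left out the 111 became 40 and the 42 became 3. PDE6B, SLC24A1, TULP1, RBP3, CABP5 and NRXN3 were among those lost. With the rods of both gates left out the 111 became 89, of which 56 were shared, and SLC24A1, TULP1, IMPG2, RBP3 and GNB3 were lost, while the 42 became 87, of which 28 were shared.

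The stretches just before the start sites of 3 genes of these comparisons, chosen because they hold a match, are shown for 2 short motifs of the factors that direct rods. RefSeq promoters (GRCh38.p14, 300 bases each) were searched on both strands for TAATCC, the core that CRX and OTX2 bind, and for TGCTGA, the core of an NRL response element, which do not overlap each other here. Of 18 rod genes looked up 13 had an entry, with 18 promoters in all since some genes have several. Of these 18 promoters 3 held the first motif and 7 the second, while of all 35116 promoters 6.36% and 17.3% held them. PDE6G had no entry. The promoters of MXRA5 and CCKBR held neither motif, and UNC119 was not searched. Below, 120 bases before the start are given 5′ to 3′ on the gene's strand, with matches on either strand in capitals. ROM1 (chr11:62613137-62613256, plus strand, inside the longer GENCODE gene) holds an NRL core 41 bases before its start, CNGB1 (chr16:57971129-57971248, minus strand) an NRL core at 55 and a CRX core at 44 bases, and SAMD7 (chr3:169911452-169911571, plus strand) a CRX core at 60 bases. A match of letters is a description and no measure of binding.
ROM1: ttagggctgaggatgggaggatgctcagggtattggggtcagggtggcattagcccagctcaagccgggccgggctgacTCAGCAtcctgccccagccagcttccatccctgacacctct
CNGB1: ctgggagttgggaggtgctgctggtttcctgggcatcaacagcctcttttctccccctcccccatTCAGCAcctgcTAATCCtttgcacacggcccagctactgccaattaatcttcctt
SAMD7: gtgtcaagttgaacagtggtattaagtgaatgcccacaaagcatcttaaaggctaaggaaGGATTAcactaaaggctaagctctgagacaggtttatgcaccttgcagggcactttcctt

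Many rods also carried cone transcripts. The cone gate was passed by 25 of 57 rods at day 90 (43.9%, 30.7 to 57.6), 9 of 38 on 200a (23.7%, 11.4 to 40.2) and 7 of 28 on 200b (25%, 10.7 to 44.9). Among cells that were not rods 20.7%, 18.6% and 7.08% passed it. At day 200 as a whole 24.2% of rods passed it (14.5 to 36.4), and this interval overlaps that of day 90. Rods of both gates had median reads of 192822, 311502 and 190312, and those of the rod gate alone 160072, 216621 and 200178. The 1 rod marked as a doublet passed the rod gate alone. Whether 2 cells in 1 capture site have a part in these values was not tested.

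ARR3, cone arrestin, stood at 611, 1014 and 216 CPM in rods of both gates and at 1.12, 1.61 and 0.63 CPM in those of the rod gate alone. It stood at 310, 286 and 52 CPM over all rods against 594, 2537 and 1279 CPM in cone-gate cells, and on 200a 1 rod carried 80.1% of its rod reads. The cone gate used ARR3, so these values are a description. Over the cone genes outside the gate, of which 9 were tested, the median log2 fold change was -3.17, and GUCA1C, a cone guanylate cyclase activator, passed the 2-fold rule downward with 0, 64 and 0 CPM against 33.4, 167 and 73.9 CPM. It no longer passed when the richest cone-gate cell was left out. GNB3, the cone transducin beta subunit, was high in both groups, at 598, 1449 and 838 CPM in rods and 702, 2227 and 1479 CPM in cone-gate cells. ROM1 was also found in rods of both gates, at 226, 727 and 1026 CPM against 270, 980 and 219 CPM in rods of the rod gate alone.

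RXRG, a nuclear receptor of cones and early photoreceptors, differed by day. It stood at 106 CPM in day 90 rods, with a read in 29 of 57, and at 1.54 and 0.96 CPM in the rods of 200a and 200b. In cone-gate cells it stood at 86.8, 154 and 160 CPM. At day 90 the rods of both gates held 140 CPM and those of the rod gate alone 69.9 CPM, so the rods lay above cone-gate cells only with the rods of both gates included, while on both day 200 chips they lay below either way. A further edgeR fit for a change of the difference by day called 0 of 18179 genes in either direction (41 and 46 at an unadjusted p under 0.05). With 1 chip at day 90 that fit left 1 residual degree of freedom, so its 0 calls say nothing about whether the difference changed.

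Rods with at least 5 GNAT1 reads (47, 31 and 24 at day 90, on 200a and on 200b) were set beside those with fewer (10, 7 and 4), all of which passed on NRL and NR2E3. The split uses a gene of the rule and was not tested. RCVRN stood at 1133, 3501 and 4972 CPM with GNAT1 and at 403, 2600 and 2486 CPM without. PDE6G stood at 103, 1013 and 99.7 CPM with GNAT1 and at 17.8, 279 and 2.09 CPM without. Both were lower without GNAT1 on every chip, whereas ROM1 was lower at day 90 (273 against 148 CPM) and on 200b (467 against 104 CPM) and higher on 200a (851 against 1236 CPM). RP1 took the same course, with 487 against 96.9, 802 against 148 and, on 200a, 829 against 1367 CPM.

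Day 200 rods were set beside day 90 rods, a comparison without a test because day 90 is 1 chip. Of 5332 genes with at least 50 CPM in the rods of either day, 278 (5.21%) were at least 2-fold higher on both day 200 chips and 281 (5.27%) at least 2-fold lower, on the scale of CPM + 10. Of all 12 phototransduction genes in the table, 4 were higher on both chips and 0 lower, namely PDE6A, PDE6B, CNGB1 and RCVRN. PDE6A, with a read in 1 of 57 rods at day 90, reached that level only through day 200. With each gene's richest rod left out on every chip PDE6B was no longer 2-fold higher on 200b, by 1.51 and 0.77, and the others remained 2-fold higher on both chips. On the scale of log2(CPM + 10), RCVRN was higher by 1.76 on 200a and 2.21 on 200b, CNGB1 by 1.48 and 1.82, and PDE6B by 1.13 and 1.23. Cone-gate cells differed by 0.23 and 1.57, 0.70 and 1.18, and 0.69 and 0.41 for the same genes.

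The counts for the other lists cover their genes that reached 50 CPM at either day, which a gene can do through the day on which it is higher. Of 12 outer segment genes 0 were higher and RPGRIP1, a connecting cilium protein, was lower, at 155, 12.4 and 52.9 CPM. Of 10 ribbon synapse genes RIMS2, which tethers vesicles at the active zone, was higher, at 586, 1851 and 1949 CPM. RXRG was the fate regulator and cone gene that was lower. Of 10 metabolism genes BSG, a partner of lactate transporters, was lower, at 92.5, 33.8 and 8.96 CPM. CABP5 was the 1 of 4 bipolar genes that was higher, by 2.64 and 2.62 on the log2 scale, while cone-gate cells differed by 0.64 and 0.29. Of 5 housekeeping genes GAPDH and EEF1A1 were lower as well, GAPDH at 68.2, 8.38 and 18.2 CPM. The 6 housekeeping genes listed summed to 1161, 506 and 547 CPM in rods and 1019, 447 and 623 CPM in cone-gate cells. They summed to 1195, 645 and 694 CPM in precursor-gate cells and 1256, 612 and 851 CPM in the remaining cells. This list was thus lower on both day 200 chips in each group, and not in rods alone.

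The largest differences between the days included genes of other retinal cells. The 10 named as higher at day 200 were GPX3, TF, DEFB119, CCKBR, A2M, NFASC, TRAC, CABP5, RPUSD3 and HIST1H4C. GPX3, a secreted peroxidase, and TF, transferrin, were on the list of Müller glia genes. GPX3 stood at 11.4, 597 and 413 CPM in rods and at 66.5, 2828 and 574 CPM in the remaining cells, and on 200b 1 rod carried 96.0% of its reads. TF stood at 14.2, 340 and 429 CPM in rods and at 67.5, 1740 and 922 CPM in the remaining cells. Of 13 Müller glia genes expressed in rods 3 were higher (GPX3, TF, WIF1) and 1 lower (SOX9), the 14 listed genes summed to 3541, 5139 and 6080 CPM in rods and 8781, 17181 and 14408 CPM in the remaining cells, and none of the 14 was at 0 in rods.

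NFASC, a neuronal cell adhesion gene, differed otherwise, at 6.47, 129 and 135 CPM in rods, 33.2, 14.9 and 6.32 CPM in cone-gate cells and 32.1, 41.6 and 35.4 CPM in the remaining cells. CCKBR, higher by 3.69 and 2.31 on the log2 scale, stood at 0.989, 6.06 and 0.891 CPM in the remaining cells. DEFB119, a beta-defensin gene, stood at 22.5, 154 and 775 CPM in rods and at 23.1, 151 and 129 CPM in cone-gate cells, with 0.0557, 0.782 and 3.97 CPM in the remaining cells. With its richest rod left out on every chip it stood at 3.35, 26.7 and 274 CPM in rods. Rods of both gates held 42.4, 88.3 and 2826 CPM of it, and those of the rod gate alone 2.06, 180 and 133 CPM.

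Among the genes lower at day 200 pigment cell genes were frequent. The 10 were GPNMB, DCT, PMEL, ENPP2, RXRG, SFRP1, ELOA, C19orf24, HOPX and a row labelled with the number 60555 and no symbol. DCT, a melanin synthesis enzyme, stood at 623, 20.7 and 83.5 CPM in rods and at 932, 205 and 132 CPM in the remaining cells. PMEL, the melanosome matrix protein, stood at 387, 25.4 and 24.2 CPM in rods and at 663, 156 and 70.3 CPM in the remaining cells. Of 7 retinal pigment epithelium genes expressed 5 were lower (TYRP1, PMEL, DCT, MITF, SERPINF1). The 9 listed summed to 1787, 255 and 364 CPM in rods, 864, 287 and 389 CPM in cone-gate cells and 3339, 888 and 492 CPM in the remaining cells, so the list was lower in each group. Over day 90 and day 200 together each of the 9 had a read in rods. RPE65, however, had a read in 1 day 90 rod and in no rod of day 200, and TYR had no read in the rods of 200a. The part of free or carried RNA of pigment and Müller cells in the rod values was not tested.

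The lists of dividing, retinal ganglion, and horizontal and amacrine cells had 6, 2 and 2 genes that reached 50 CPM at either day. Their shares thus rest on few genes beside the 5.21% higher and 5.27% lower over all genes. Of 6 dividing-cell genes MKI67 was higher at day 200, at 7.86, 225 and 34.7 CPM, but it had a read in 3, 3 and 2 rods and 1 rod of 200a carried 99.9% of the reads there. Of 2 retinal ganglion cell genes expressed DCX was lower, and of 2 horizontal and amacrine cell genes 0 differed 2-fold on both chips. Reads of mitochondrial genes made up 4.01%, 3.62% and 5.68% of rod reads and 3.55%, 4.56% and 3.73% of cone-gate reads.

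**Figure D4:**
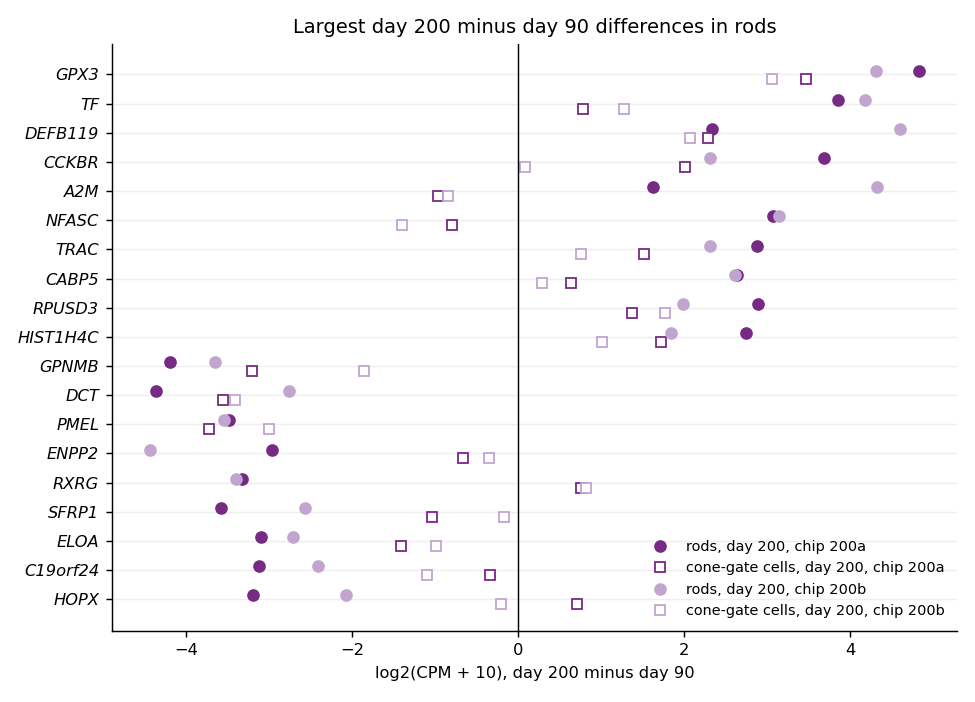
Difference in log2(CPM + 10) between each day 200 chip and day 90 in rods, with the same difference in cone-gate cells, for the named genes that carry a symbol. RXRG is lower by 3.32 and 3.40 in rods and higher by 0.76 and 0.81 in cone-gate cells, whereas DCT and PMEL are lower in both.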

How the data were processed

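The authors trimmed reads with Trimmomatic (version 0.33), aligned them with STAR (2.4.0) to GRCh38 with the GENCODE comprehensive annotation plus spike sequences, counted them per gene with HTSeq (0.6), as the submitters' processing notes and the study's methods give, and filtered cells with Scater. They deposited 1 table of raw read counts for 24415 rows and 1976 cells. A table of cells came with it, with sample names whose endings give the day and were taken to give the chip. Array spikes were added to the lysis mix, at a higher concentration on the day 90 chip than on the other chips. The row GFP-Spike was left out of library sizes, which left 24414 rows. Of these, 166 are labelled only by a number and hold reads only on the day 60 and day 90 chips, and 92 only by an Ensembl identifier and hold reads only on the day 200 chips, so day differences of such rows follow their labels. No column of cells was left out (0).

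Members and gene lists were chosen with earlier results of these data known. Cells were gated on counts, and reads were summed per chip and group and given as CPM with exact Poisson intervals, shares with exact Clopper-Pearson intervals (95%), and the difference of shares with a Newcombe interval. Since reads carried no molecular identifiers, they may repeat a molecule, and all intervals cover counting error alone. A share of 0 was given the limit of 3 counts. Each rods-against-others comparison used edgeR (4.0.16, R 4.3.3) glmQLFit and glmQLFTest with TMM, filterByExpr and chip as a covariate, on chips with at least 10 cells in each group, and Benjamini-Hochberg adjustment over all genes tested. With chip as a term, p-values set the difference between the groups against how far that difference varied from chip to chip. The chips also differ in day, so this variation includes that between days. The planned comparison with other CRX cells could not be fitted (9, 14, 0 and 1 cells on the chips) and was replaced, after the data were seen, by precursor-gate cells. The procedure was tested on simulated counts. Alternatives were DESeq2 (1.42.0), limma (3.58.1) on mean CPM and voom, other normalizations, filters, gates and thinning to 50000 reads per cell, and leaving out each chip. Doublets were called with scanpy (1.11.5).

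Genes named by rule were all listed genes, genes past adjusted p under 0.05 with the largest folds (at least 50 CPM and a read in at least 25% of cells of the higher group, the same direction on each chip), and the 10 largest differences in each direction between day 200 and day 90 in log2(CPM + 10), both chips agreeing. Genes named by the smallest chip ratio were chosen after their values were seen. Positions come from GENCODE on GRCh38, and promoters from RefSeq. GRK1, SALL3, GNAT2, CPLX3, NXNL1 and GNG13 were not analysed here. The counting options that the study lists do not name strand, so whether reads of a gene and of an overlapping gene were told apart is not known here.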

Additional observations from a re-analysis of the deposited data

Results flagged for a closer look

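A row named GFP-Spike, which entered no comparison, held reads in the rods of day 200. Its level was 348.1 CPM on 200a, where 71.1% of rods had a read, and 159 CPM on 200b, where 60.7% did. In cone-gate cells it stood at 457 and 200 CPM, in precursor-gate cells at 238 and 34.1 CPM, and in the remaining cells at 47.8 and 12.4 CPM. It held 0 reads in all cells of day 60 and day 90. What the row counts is not given in the sources used here.

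The row labelled 60555, which carries no gene symbol, stood at 469.9 CPM in day 90 rods, with a read in 54 of 57. Cone-gate cells of that chip held 423 CPM, precursor-gate cells 311 CPM and the remaining cells 96.2 CPM. At day 60 it stood at 145 CPM in cone-gate cells and 6.84 CPM in the remaining cells, and it held 0 reads on both day 200 chips, as did each row labelled by a number.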

How the results depend on the processing

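No paired analysis was possible by replicate number, because the labels' numbers name columns of different chips. Rods and the cells they were set against were instead paired by chip, a term of the fit, and the values without that term are given below. Requiring all 3 rule genes left 43 rods. Against cone-gate cells the 1 gene called higher became 133 with DESeq2, 2 with limma on mean CPM, 0 with voom, 0 without the chip term, 2 without a filter on low counts and 7 after thinning, and between 0 and 0 with a chip left out. The 0 called lower became 144 with DESeq2 and 1 with rods of both gates left out. Against precursor-gate cells the 4 genes called higher became 193 with DESeq2, 1 with limma on mean CPM, 1 with voom, 2 without the chip term, 7 without a filter and 21 after thinning, and between 1 and 11 with a chip left out. The 0 called lower became 86 with DESeq2, 1 with voom, 1 without a filter and 4 after thinning, and between 0 and 2 with a chip left out. The cause was not tested. The 2-fold rule on the 2 chips that remain when 1 is left out gave 132 to 391 genes higher and 136 to 368 lower against cone-gate cells, and 280 to 561 and 187 to 401 against precursor-gate cells, since fewer chips had to pass. Of the 20 genes named between day 200 and day 90, 13 remained with a pseudocount of 1 and 10 with either day 200 chip left out (range 10 to 10). All 20 kept their direction, but a gene was named only if both day 200 chips lay on the same side of day 90. Direction could therefore change only with mean CPM over cells or with each gene's richest cell left out. For the row 60555, with 0 reads at day 200, it could change in no setting. The difference in the share of rods between day 200 and day 90 ran from -0.0127 to 0.956 percentage points over other gates, and from -1.27 to 2.05 with a day 200 chip left out. The share of rods that pass the cone gate ran from 42.9% to 51.5% at day 90 and from 21.7% to 27.8% at day 200. With 28 to 57 rods on a chip, a gene carried by few rods rests on 1 or 2 cells.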
